A study of Mus musculus with 14 samples.

Results

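The 10 genes described here encode the enzymes that build and desaturate fatty acids, together with the transcription factor gene Srebf1. They were taken by symbol from a count table of 54532 genes, and all 10 passed the filter on low counts that left 15360 genes for testing. The choice was by symbol and function. Tumours of 4T1 cells, a mouse line of triple-negative breast cancer (TNBC), were analysed by bulk RNA-seq in 14 libraries: 4 from mice injected with the PBS vehicle, 5 from mice given 100 mg/kg of cyclophosphamide (CTX100) and 5 from mice given 140 mg/kg (CTX140). Cyclophosphamide, abbreviated CTX, is a DNA-alkylating chemotherapy drug. Per the labels, all animals received 1000000 4T1 cells under the skin of the mammary area, intraperitoneal injections began 9 days later at a tumour volume near 100 mm3 and were repeated every 6 days, and tumours were collected 3 days after cycle 3. The sources used here do not give the strain, sex or age of the mice. Nor do the labels tie each library to its own mouse, and p-values therefore cover only the spread between libraries, which may be technical. They name the cell type as TNBC cells, but RNA came from whole tumours, which also hold host cells.

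In the cytosol, ATP citrate lyase turns citrate into acetyl-CoA, acetyl-CoA carboxylase turns acetyl-CoA into malonyl-CoA, and fatty acid synthase joins these units into palmitate. Elongases then lengthen the chain, and desaturases place double bonds in it. Stearoyl-CoA desaturases make monounsaturated fatty acids such as oleate, whereas the fatty acid desaturases Fads1 and Fads2 act on dietary polyunsaturated precursors of arachidonate and docosahexaenoate. Transcription of these enzymes is known to be driven by sterol regulatory element binding proteins (SREBPs), which are released from a membrane-bound precursor. Tumour cells and adipocytes both use the pathway, and white adipose tissue surrounds the mammary gland.

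PBS libraries held 15.2 to 17.1, CTX100 libraries 15.9 to 19.3 and CTX140 libraries 14.4 to 18.8 (totals in 1000000 counts). Mitochondrially encoded genes took 3.46 to 5.87% of counts in the PBS libraries, 3.09 to 6.87% in the CTX100 libraries and 4.14 to 9.81% in the CTX140 libraries, with the highest share in the first of them (CTX140 1) and at most 5.84% in the other 4. Krt18 and Krt8, keratins of the carcinoma epithelium, led their list of 8 carcinoma epithelium markers. Their means over the 14 libraries were 504 and 492 FPKM (fragments per kilobase of gene length and 1000000 scaled counts). The summed level of those 8 markers was 863 to 1330 FPKM in PBS, 1020 to 1250 FPKM in CTX100 and 721 to 1110 FPKM in CTX140. Krt18 and Krt8 dominate that sum and were not called in CTX140 against PBS, whereas Epcam, Krt19, Cdh1 and Cldn7 of the same list were called higher. Epcam, an epithelial adhesion gene, averaged 20.3 ± 23.3 CPM (counts per 1000000) in CTX140 (SD, n = 5) and 1.40 ± 1.07 CPM in PBS (n = 4), and Krt19, another keratin gene, averaged 45.0 ± 45.3 CPM in CTX140 and 3.8 ± 2.41 CPM in PBS. Without CTX140 1 the CTX140 means were 9.86 CPM for Epcam and 25 CPM for Krt19, and all 4 were still called. Without PBS 4 the calls of Cdh1 and Cldn7 were lost. The summed level of 8 macrophage markers was 1440 to 2840 FPKM in PBS, 934 to 2020 FPKM in CTX100 and 1110 to 8430 FPKM in CTX140. The 8430 FPKM came from CTX140 2, and the next CTX140 library, CTX140 1, had 3700 FPKM. Lyz2 led that list at a mean of 1420 FPKM over the 14 libraries. Cd68 was the only macrophage marker called in CTX140 against PBS, as higher. Summed over 12 genes, adipocyte markers were lower in every PBS library than in any library of either dose, while the doses overlapped. Their sum was 4.67 to 22.1 FPKM in PBS, 24.6 to 108 FPKM in CTX100 and 55.9 to 363 FPKM in CTX140. It was highest in CTX140 1, and Cfd and Fabp4 led the list at a mean of 49.9 and 17.7 FPKM over the 14 libraries.

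At 140 mg/kg the pathway did not move as 1 block. The elongase gene Elovl6 and the desaturase genes Scd2, Fads1 and Fads2 fell against PBS. The desaturase gene Scd1 was called higher, but that call was lost in 6 of 9 cases when 1 library was left out. The genes for citrate cleavage, carboxylation, palmitate synthesis and the transcription factor Srebf1 did not pass the test. By the edgeR quasi-likelihood test with Benjamini-Hochberg adjustment over all 15360 genes, called at an adjusted p under 0.05, 4 of the 10 genes were called lower in CTX140 than in PBS, where 10.1% of all genes tested were called lower. In the same comparison 1 of the 10 was called higher, where 11.1% of all genes were, and 21.3% of all genes were called in either direction. The median log2 fold change of the 10 genes was -0.12, beside 0.025 over all genes tested, and their values ran from -1.49 for Fads2 to 1.64 for Scd1. In bulk tumour RNA, fewer cells of a type and less RNA per cell cannot be told apart.

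**Figure D1:**
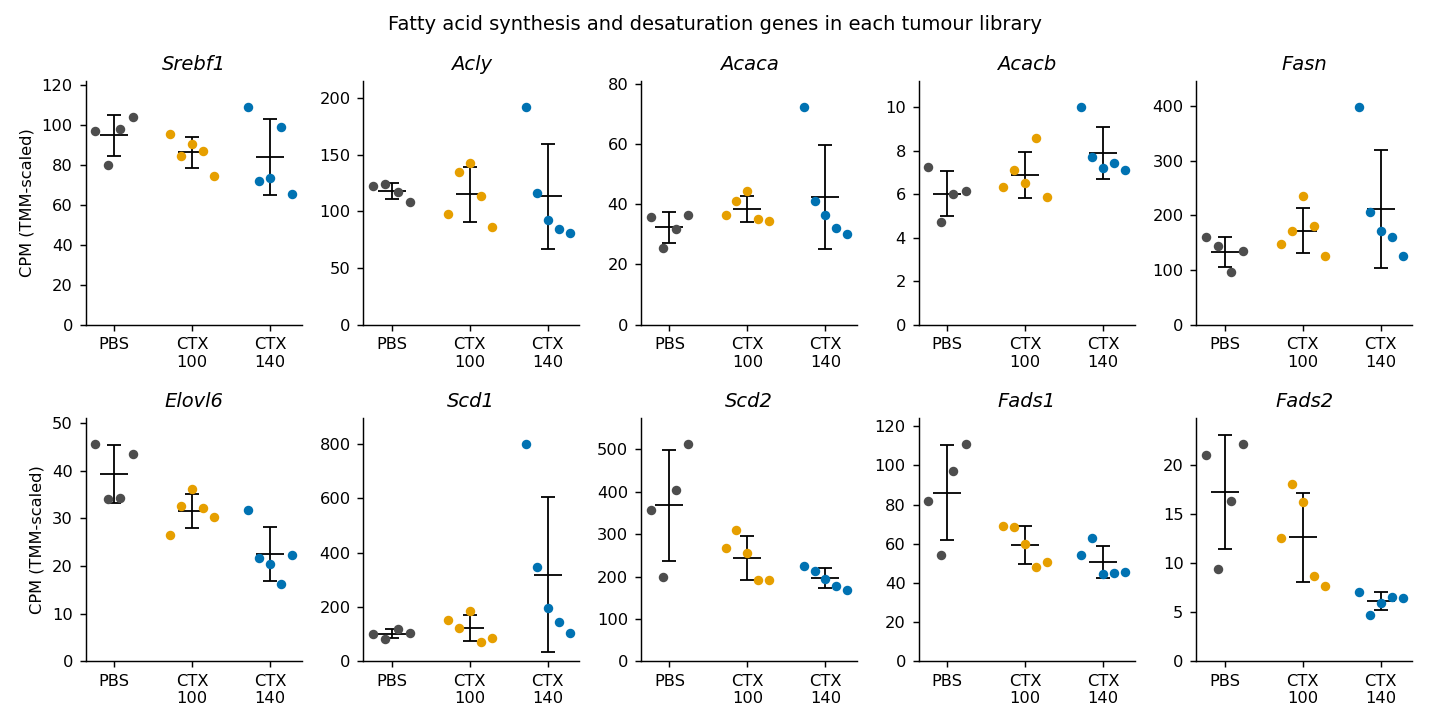
Expression of the 10 genes in each library, as counts per 1000000 after TMM scaling of library sizes (CPM, linear axis from 0). Points are libraries in replicate order (4 PBS, 5 CTX100, 5 CTX140), the horizontal bar is the group mean and the whiskers are 1 SD. Fads2 and Elovl6 lie lower in every CTX140 library than in every PBS library, and CTX140 1 is the highest CTX140 library for every gene except Fads1.

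Fads2, the delta-6 desaturase that takes the first step from linoleate and alpha-linolenate (ENSMUSG00000024665, minus strand, chr19:10064164-10101503, mm10), showed the largest fall of the 10. Its values were 21.0, 9.36, 16.3 and 22.1 CPM in PBS, 12.5, 18, 16.2, 8.63 and 7.61 CPM in CTX100, and 7.07, 4.75, 5.89, 6.56 and 6.42 CPM in CTX140. All 5 CTX140 libraries lay below all 4 PBS libraries and below all 5 CTX100 libraries, while CTX100 overlapped with PBS. Fads2 averaged 6.14 ± 0.881 CPM in CTX140 (SD, n = 5) and 17.2 ± 5.80 CPM in PBS (n = 4), and its log2 fold change was -1.49 (SE 0.27, edgeR adjusted p = 0.00172). CTX140 was 2.80-fold lower. The counts behind these values were small for this set, 80 to 120 per library in CTX140 and 137 to 403 in PBS.

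Fads1, the delta-5 desaturase that acts later in the same route (ENSMUSG00000010663, plus strand, chr19:10182888-10196870), lies near Fads2 on chromosome 19. It measured 81.7, 54.4, 97.1 and 111 CPM in PBS, 69, 68.5, 60, 48.4 and 50.7 CPM in CTX100, and 54.3, 63.2, 44.8, 45.3 and 45.5 CPM in CTX140. The second PBS library (PBS 2) was the lowest of its group and lay inside the CTX140 range, and the other 3 PBS libraries lay above every CTX140 library. Fads1 averaged 50.6 ± 8.05 CPM in CTX140 (SD, n = 5) and 86.0 ± 24.2 CPM in PBS (n = 4), and its log2 fold change was -0.77 (SE 0.18, edgeR adjusted p = 0.00781). The level per length of Fads1 over that of Fads2 was 3.01 to 5.80 in CTX140 and 1.70 to 2.60 in PBS, ranges that do not overlap. No test was made of this ratio. The deposited table gives Fads2 a length of 1508 bases, beside a GENCODE transcript of 3150 bases, so its FPKM level relative to other genes rests on that listed length.

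Elovl6, the elongase that extends palmitate to stearate (ENSMUSG00000041220, plus strand, chr3:129532355-129638495), measured 45.6, 34.1, 34.2 and 43.5 CPM in PBS, 26.4, 32.5, 36.1, 32.1 and 30.2 CPM in CTX100, and 31.8, 21.6, 20.5, 16.3 and 22.2 CPM in CTX140. Every CTX140 library was below every PBS library, and the highest of them was CTX140 1. Elovl6 averaged 22.5 ± 5.71 CPM in CTX140 (SD, n = 5) and 39.3 ± 6.08 CPM in PBS (n = 4), and its log2 fold change was -0.81 (SE 0.17, edgeR adjusted p = 0.00372). Groups that did not overlap in this direction were found for 2 of the 10 genes, Elovl6 and Fads2, against 6.91% of all genes tested. None of the 10 had all CTX140 libraries above all PBS libraries, as 7.34% of all genes did.

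RefSeq promoter windows (GRCm38.p6, 250 bases before to 50 bases after the start site) matched 7 of the 10 genes, in 9 windows. The windows of the called genes Fads2 and Elovl6 are shown with that of Fasn, which did not pass the test, so that genes of both outcomes can be read side by side. They lie at chr19:10101454-10101753 on the minus strand for Fads2, chr3:129532136-129532435 on the plus strand for Elovl6 and chr11:120824498-120824797 on the minus strand for Fasn, and are written 5′ to 3′ along the gene. Capitals mark matches to any of 4 motifs searched on both strands: TCACNCCAC (a form of the sterol regulatory element), CCAAT (the NF-Y box), GGGCGG (the GC box of Sp1) and CACGTG (the E-box).
Fads2: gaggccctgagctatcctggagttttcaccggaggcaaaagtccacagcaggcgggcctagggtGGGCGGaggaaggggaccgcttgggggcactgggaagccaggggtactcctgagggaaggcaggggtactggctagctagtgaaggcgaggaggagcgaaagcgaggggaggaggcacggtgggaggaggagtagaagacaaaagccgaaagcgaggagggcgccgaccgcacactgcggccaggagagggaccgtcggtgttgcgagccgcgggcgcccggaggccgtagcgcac
Elovl6: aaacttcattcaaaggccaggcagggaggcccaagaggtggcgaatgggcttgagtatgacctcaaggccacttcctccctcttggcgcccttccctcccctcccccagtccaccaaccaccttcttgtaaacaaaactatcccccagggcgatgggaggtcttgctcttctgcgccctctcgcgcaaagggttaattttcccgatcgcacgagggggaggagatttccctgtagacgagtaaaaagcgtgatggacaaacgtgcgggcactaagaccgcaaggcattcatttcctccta
Fasn: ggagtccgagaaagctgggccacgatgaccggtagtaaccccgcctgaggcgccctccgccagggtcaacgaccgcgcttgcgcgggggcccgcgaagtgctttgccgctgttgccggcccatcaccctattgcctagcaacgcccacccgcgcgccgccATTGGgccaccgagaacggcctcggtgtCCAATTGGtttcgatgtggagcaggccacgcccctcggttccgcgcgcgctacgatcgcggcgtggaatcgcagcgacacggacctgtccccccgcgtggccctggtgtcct
The Fads2 window holds 1 GC box, 186 bases before the start site, the Elovl6 window holds none of the 4 motifs, and the Fasn window holds 3 CCAAT boxes, 90, 62 and 59 bases before the start. The CCAAT boxes at 62 and 59 are on opposite strands and overlap. The sterol regulatory form and the E-box were found in none of the 9 windows. Among 32544 RefSeq windows of mouse genes, 1.24% hold TCACNCCAC, 37.4% hold CCAAT, 35.9% hold GGGCGG and 7.17% hold CACGTG. A match describes letters and is no measure of binding.

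The stearoyl-CoA desaturases Scd1 and Scd2 introduce the same delta-9 double bond and moved in opposite directions. Scd1 (ENSMUSG00000037071, minus strand, chr19:44394451-44407709), the main form of liver and adipose tissue, measured 101, 83.1, 121 and 104 CPM in PBS, 153, 123, 186, 69.9 and 86.7 CPM in CTX100, and 801, 346, 198, 146 and 105 CPM in CTX140. Within CTX140, 4 of 5 libraries exceeded every PBS library, the fifth lay inside the PBS range, and CTX140 1 stood far above the rest. Scd1 averaged 319 ± 285 CPM in CTX140 (SD, n = 5) and 103 ± 15.6 CPM in PBS (n = 4), a 3.11-fold difference. Its log2 fold change was 1.64 (SE 0.50, edgeR adjusted p = 0.0336). Without CTX140 1 the log2 fold change was 0.96 ± 0.35 with an adjusted p of 0.068, and the call was lost. It was also lost without any single PBS library or without CTX140 2, with an adjusted p of at most 0.0912.

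Scd2 (ENSMUSG00000025203, plus strand, chr19:44293676-44306864), the form abundant in brain, measured 357, 199, 404 and 513 CPM in PBS, 267, 311, 255, 191 and 191 CPM in CTX100, and 226, 212, 195, 178 and 168 CPM in CTX140. Of the PBS libraries, 3 of 4 lay above every CTX140 library, and PBS 2 lay inside the CTX140 range. Scd2 averaged 196 ± 23.8 CPM in CTX140 (SD, n = 5) and 368 ± 130 CPM in PBS (n = 4), and its log2 fold change was -0.91 (SE 0.21, edgeR adjusted p = 0.00802). Per library, the FPKM of Scd1 over that of Scd2 was 0.321, 0.472, 0.339 and 0.230 in PBS, 0.649, 0.446, 0.821, 0.412 and 0.513 in CTX100, and 3.99, 1.84, 1.15, 0.921 and 0.700 in CTX140. The ratio was above 1 in 3 of 5 CTX140 libraries and in no PBS or CTX100 library. The FPKM of both genes together was 52.5 to 205 in CTX140 and 53.4 to 115 in PBS, ranges that overlap.

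**Figure D2:**
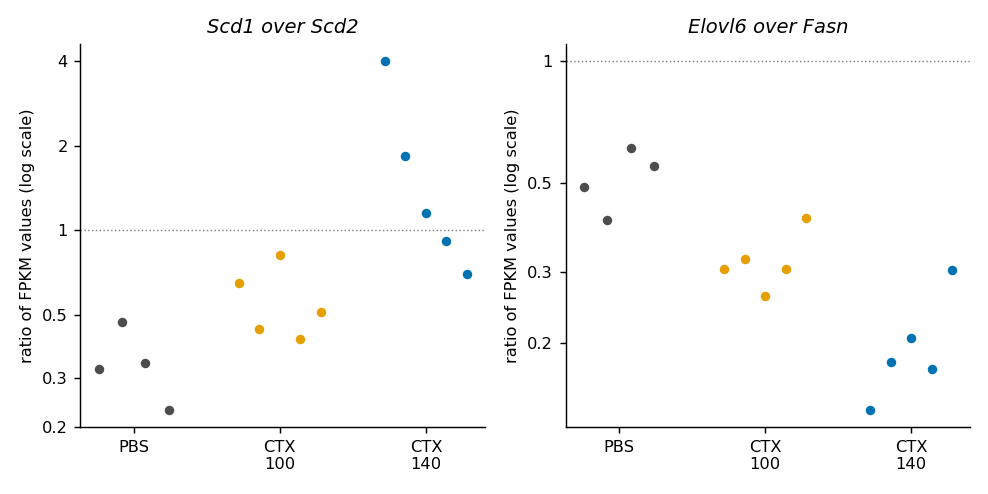
Ratios of FPKM values within each library (log axis, 1 point per library, dotted line at 1) for Scd1 over Scd2 and for Elovl6 over Fasn in PBS, CTX100 and CTX140. The Scd1 ratio is 0.700 to 3.99 in CTX140 and 0.230 to 0.472 in PBS, and the Elovl6 ratio is 0.136 to 0.303 in CTX140 and 0.404 to 0.608 in PBS.

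Scd1 and Scd2 are close copies, so their transcripts were compared for stretches where reads cannot be told apart. In GENCODE M21 their coding sequences were identical at 965 of 1068 aligned bases, or 90.4%, and the longest shared run was 147 bases. A stretch of 120 coding bases near the start of each shows how they differ: coding bases 75 to 194 of Scd1 and 84 to 203 of Scd2, written 5′ to 3′, with capitals at the 32 positions where the letters differ.
Scd1: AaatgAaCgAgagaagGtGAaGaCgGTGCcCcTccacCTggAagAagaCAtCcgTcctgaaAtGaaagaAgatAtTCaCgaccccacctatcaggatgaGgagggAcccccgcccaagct
Scd2: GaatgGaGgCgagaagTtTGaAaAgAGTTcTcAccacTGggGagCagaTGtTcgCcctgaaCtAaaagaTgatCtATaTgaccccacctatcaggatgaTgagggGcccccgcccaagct
Of all 100-base words of the Scd1 transcript, 2.66% also occur in transcripts of other genes, and of those of Scd2 0.896%. Most words of that length in each transcript therefore occur in no other gene. The sources used here give neither the read length nor how reads with several matches were treated.

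Fasn, fatty acid synthase (ENSMUSG00000025153, minus strand, chr11:120805846-120824547), did not pass the test at 140 mg/kg. It measured 160, 144, 95.6 and 135 CPM in PBS, 147, 172, 236, 180 and 126 CPM in CTX100, and 398, 206, 171, 161 and 125 CPM in CTX140. Within CTX140, 4 of 5 libraries were above every PBS library and the fifth lay inside the PBS range. Fasn averaged 212 ± 108 CPM in CTX140 (SD, n = 5) and 133 ± 27.3 CPM in PBS (n = 4), and its log2 fold change was 0.67 (SE 0.29, edgeR adjusted p = 0.111). Without CTX140 1 the log2 fold change was 0.31, and without CTX140 5 it was 0.81 with an adjusted p of 0.0471. The FPKM of Elovl6 over that of Fasn was 0.136 to 0.303 in CTX140 and 0.404 to 0.608 in PBS, without overlap and with no test made.

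The genes for citrate cleavage and carboxylation were near their PBS levels or overlapped with them. Acly, ATP citrate lyase (ENSMUSG00000020917, minus strand, chr11:100476353-100528000), averaged 113 ± 46.0 CPM in CTX140 (SD, n = 5) and 118 ± 7.00 CPM in PBS (n = 4), with a log2 fold change of -0.06 ± 0.22 (SE). Its CTX140 libraries spanned 81.0 to 192 CPM, around the PBS range of 108 to 124 CPM, and the sign of its fold change turned when any 1 of CTX140 3, 4 or 5 was left out, to at most 0.04. Acaca (ENSMUSG00000020532, plus strand, chr11:84129672-84401651), the cytosolic acetyl-CoA carboxylase, averaged 42.4 ± 17.2 CPM in CTX140 (SD, n = 5) and 32.3 ± 5.12 CPM in PBS (n = 4), with a log2 fold change of 0.39 ± 0.21 (SE) that was 0.11 without CTX140 1. Its CTX140 libraries spanned 30.2 to 72.2 CPM and its PBS libraries 25.3 to 36.5 CPM. Acacb (ENSMUSG00000042010, plus strand, chr5:114146535-114250761), the form at the mitochondrial surface that curbs fatty acid entry, averaged 7.89 ± 1.2 CPM in CTX140 and 6.03 ± 1.03 CPM in PBS, with a log2 fold change of 0.39 ± 0.19 (SE), over ranges of 7.12 to 10.0 CPM in CTX140 and 4.71 to 7.23 CPM in PBS. The edgeR adjusted p-values of Acly, Acaca and Acacb were 0.875, 0.204 and 0.145.

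Acaca is the 1 gene of the set whose count is uncertain over much of its length. Of the 100-base words in its transcript, 42.8% also occur in Gm5182, a processed pseudogene on chromosome 12. Gm5182 had 19 to 65 counts per library, so the counts of Acaca depend on how such reads were assigned. The Srebf1 transcript overlaps with Rai1 on the opposite strand and shares 0.238% of its 100-base words with it, and Acly, Acacb, Fasn and Fads1 share none with other genes.

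Srebf1, the transcription factor gene for SREBP-1 (ENSMUSG00000020538, minus strand, chr11:60199089-60222581), measured 97.2, 80.2, 98.0 and 104 CPM in PBS, 95.5, 84.4, 90.3, 87.2 and 74.7 CPM in CTX100, and 109, 71.9, 73.3, 99.1 and 65.7 CPM in CTX140. The 3 groups overlapped. Srebf1 averaged 83.7 ± 18.9 CPM in CTX140 (SD, n = 5) and 94.9 ± 10.3 CPM in PBS (n = 4), and its log2 fold change was -0.18 (SE 0.14, edgeR adjusted p = 0.39). SREBPs are regulated by cleavage of their precursor, which RNA levels do not measure.

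**Figure D3:**
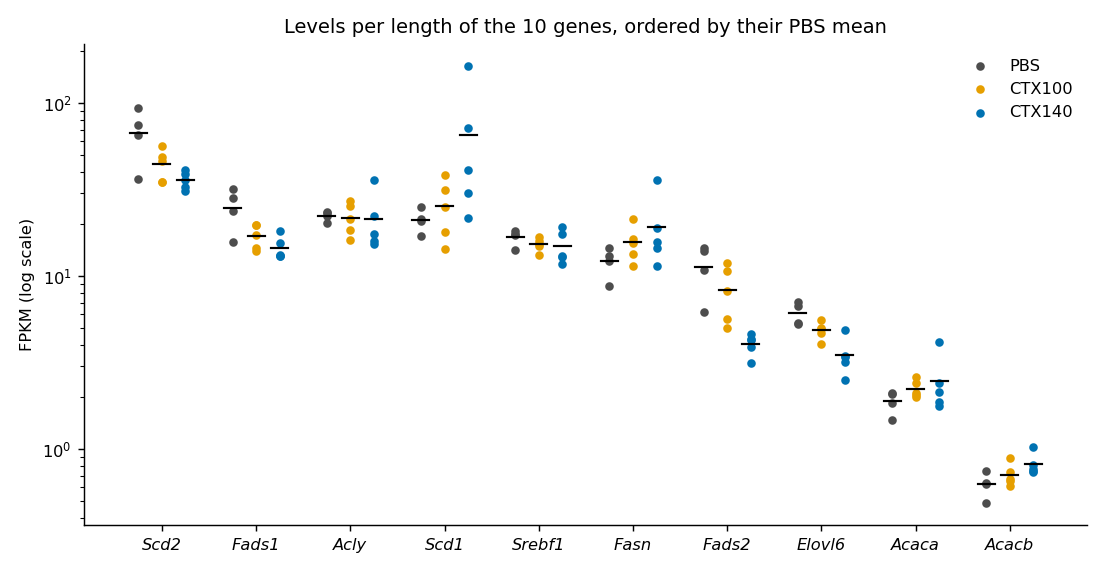
FPKM of the 10 genes on a log axis, ordered by the PBS mean, with 1 point per library (4 PBS, 5 CTX100, 5 CTX140) and a bar at each group mean. Scd2 leads in PBS at a mean of 67.2 FPKM and in CTX100 at 44.2 FPKM, and Scd1 leads in CTX140 at 65.7 FPKM.

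Levels between genes were compared per length, in FPKM. In PBS, Scd2 led at 67.2 ± 23.7 FPKM (SD, n = 4) and did not overlap with the next gene, Fads1, at 24.8 ± 6.94 FPKM. Fads1, Acly, Scd1, Srebf1, Fasn, Fads2 and Elovl6 followed in that order, each overlapping with its neighbour, and Acaca at 1.88 and Acacb at 0.623 FPKM were last, each apart from the gene above it. In CTX100 the order was Scd2, Scd1, Acly, Fads1, Fasn, Srebf1, Fads2, Elovl6, Acaca and Acacb, with a mean of 44.2 ± 9.40 FPKM for Scd2 (SD, n = 5) and 25.4 ± 9.74 FPKM for Scd1, which overlapped. In CTX140, Scd1 came first at 65.7 ± 58.1 FPKM (SD, n = 5), overlapping with Scd2 at 35.9 ± 4.27 FPKM, and the order went on with Acly, Fasn, Srebf1, Fads1, Fads2, Elovl6, Acaca and Acacb. The mean share of Scd2 in the summed FPKM of the 10 genes was 35.5% in PBS, 28.5% in CTX100 and 21.8% in CTX140, and that of Scd1 was 11.6% in PBS, 16% in CTX100 and 31.4% in CTX140. CTX140 1, at 164 FPKM, carried much of the Scd1 level: over the other 4 CTX140 libraries Scd1 averaged 41.1 ± 22 FPKM and Scd2 34.6 ± 3.62 FPKM (SD), with mean shares of 26.7% for Scd1 and 24.1% for Scd2.

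Spread within CTX140 was uneven across the set. The highest CTX140 library exceeded the lowest 7.66-fold for Scd1, 3.19-fold for Fasn, 2.39-fold for Acaca and 2.37-fold for Acly, but 1.34-fold for Scd2, 1.41-fold for Fads1 and 1.49-fold for Fads2. In PBS the widest spreads were 2.58-fold for Scd2 and 2.36-fold for Fads2, with PBS 2 lowest for both. PBS 2 was the lowest PBS library for each of the 10 genes other than Acly and Fasn.

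The comparison at 100 mg/kg asks whether the lower dose already moved these genes. None of the 10 passed the edgeR test in CTX100 against PBS, neither higher, where 1.2% of all genes tested were called, nor lower, where 0.397% were (1.6% in either direction). None had groups without overlap, which were found for 5.17% of all genes in the higher direction and 3.55% in the lower. At an unadjusted p under 0.05 there were 2 of 10, Scd2 and Fads1, and DESeq2 also called 0 of 10. Scd2 averaged 243 ± 51.7 CPM in CTX100 (SD, n = 5) and 368 ± 130 CPM in PBS (n = 4), and its log2 fold change was -0.60 (edgeR adjusted p = 0.15). Fads1 averaged 59.3 ± 9.64 CPM in CTX100 and 86.0 ± 24.2 CPM in PBS, and its log2 fold change was -0.54 (edgeR adjusted p = 0.129). Without PBS 2 both were called lower, Scd2 at -0.81 with an adjusted p of 0.0229 and Fads1 at -0.70 with an adjusted p of 0.024. The remaining log2 fold changes were -0.45 for Fads2, -0.32 for Elovl6, -0.13 for Srebf1, -0.03 for Acly, 0.19 for Acacb, 0.25 for Acaca, 0.27 for Scd1 and 0.37 for Fasn.

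Between the doses, the question is whether 140 mg/kg differed from 100 mg/kg. None of the 10 passed the edgeR test in CTX140 against CTX100, where 0.775% of all genes were called higher and 0.475% lower (1.25% in either direction), and 3 of the 10 had an unadjusted p under 0.05. Fads2 came nearest, with 6.14 ± 0.881 CPM in CTX140 and 12.6 ± 4.56 CPM in CTX100 (SD, n = 5 each), and its log2 fold change was -1.04 (SE 0.26, edgeR adjusted p = 0.0544). Its CTX140 libraries lay below every CTX100 library, a separation in this direction found for 3.71% of all genes, and DESeq2 called it lower. None of the 10 was separated in the higher direction, as 2.33% of all genes were. The log2 fold change of Scd1 was 1.37 ± 0.46 (SE, edgeR adjusted p = 0.112), and that of Elovl6 was -0.48 ± 0.16 with an adjusted p of 0.1. The CTX100 mean lay between the means of PBS and CTX140 for all 10 genes, but the share of all genes with that order was not counted. For some of the 10 the means differed by less than their SD. Acly averaged 118 ± 7.00 CPM in PBS, 115 ± 24.3 CPM in CTX100 and 113 ± 46.0 CPM in CTX140. Both dose comparisons with PBS share the 4 PBS libraries, so their fold changes are not independent.

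**Figure D4:**
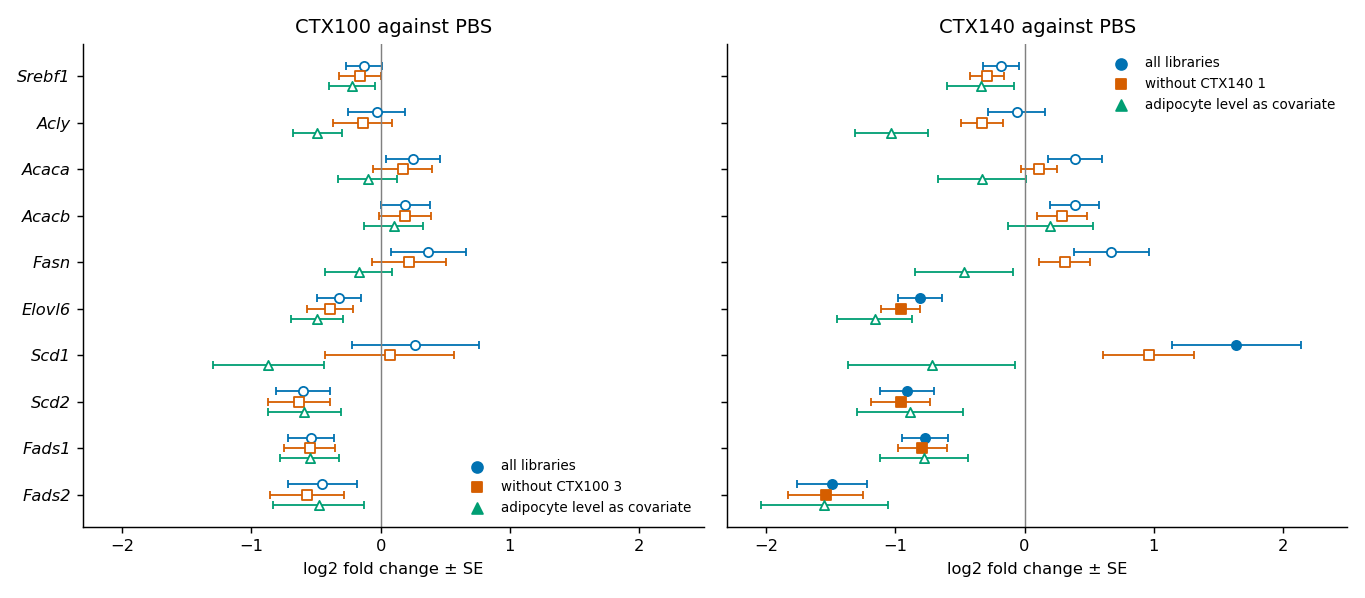
Log2 fold changes of the 10 genes against PBS, with whiskers of 1 SE, for CTX100 (left) and CTX140 (right), from all libraries (circles), without the treated library highest in adipocyte markers (squares) and with the adipocyte level as a covariate (triangles). Filled symbols have an edgeR adjusted p under 0.05. Elovl6, Scd2, Fads1 and Fads2 lie below 0 under all 3 settings, and Scd1, Fasn and Acaca cross 0 with the covariate in both comparisons.

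Adipocyte markers varied with part of the set. Of 12 such markers, 10 were tested and 8 were called higher in CTX140 than in PBS, beside 11.1% of all genes. The median log2 fold change was 3.68 over those tested. Lipe and Pparg were not called, with log2 fold changes of 0.37 and 0.9. Their means were lower in CTX100 than in PBS, at 12.9 and 14.2 CPM for Lipe and 1.33 and 2.25 CPM for Pparg. The fat-cell hormone gene Adipoq averaged 15 ± 9.95 CPM in CTX140 (SD, n = 5) and 0.682 ± 0.419 CPM in PBS (n = 4), and its log2 fold change was 4.46 (SE 0.71, edgeR adjusted p = 0.000948). The fatty acid carrier gene Fabp4 averaged 150 ± 95.4 CPM in CTX140 and 28.1 ± 15.9 CPM in PBS. In CTX100 against PBS, 0 of the 10 tested markers were called, with a median of 1.59. Of the 12, 1 marker, Cidea, was at 0 in every PBS library. The summed level of the 12 was 22.1, 17.0, 13.2 and 4.67 FPKM in PBS, 57.3, 50.3, 108, 25.9 and 24.6 FPKM in CTX100, and 363, 221, 153, 76.9 and 55.9 FPKM in CTX140. Within CTX140 it followed the same order over the 5 libraries as Scd1, Fasn, Acaca, Acly and Scd2, with CTX140 1 highest and CTX140 5 lowest in each. Srebf1, Acacb, Elovl6, Fads1 and Fads2 did not follow that order, and the share of all genes with it was not counted.

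**Figure D5:**
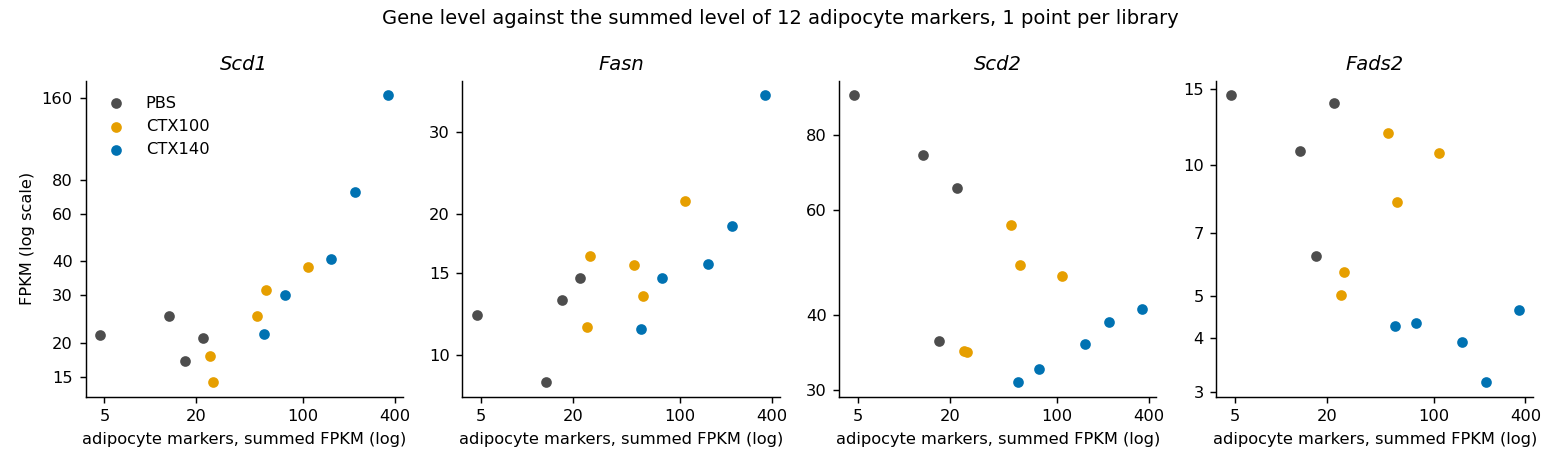
FPKM of Scd1, Fasn, Scd2 and Fads2 in each library against the summed FPKM of 12 adipocyte markers (both axes log, 1 point per library, PBS, CTX100 and CTX140 in separate colours). The 5 CTX140 libraries span 55.9 to 363 FPKM of markers, above the PBS range of 4.67 to 22.1, and within them Scd1 is higher where the markers are higher, while Fads2 stays between 3.16 and 4.63 FPKM.

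With the adipocyte level as a covariate in the fit, none of the 10 genes was called in CTX140 against PBS, in either direction, and 251 genes of all tested were. The log2 fold changes in that fit were -1.55 ± 0.49 for Fads2, -1.16 ± 0.29 for Elovl6, -0.89 ± 0.41 for Scd2 and -0.78 ± 0.34 for Fads1 (SE), with adjusted p-values of 0.114, 0.0531, 0.266 and 0.239. Those of Scd1, Fasn and Acaca took the other sign, at -0.72, -0.47 and -0.33, and Acly had -1.03. Without CTX140 1 the 4 genes that fell were still called, with log2 fold changes of -1.54 for Fads2, -0.96 for Elovl6, -0.96 for Scd2 and -0.79 for Fads1. The ranges of the adipocyte level in CTX140 and PBS do not overlap, so dose and adipocyte content cannot be told apart in that fit.

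Markers of some other cell types differed between the groups as well. The summed level of 8 fibroblast markers was 296 to 860 FPKM in CTX140 and 92.2 to 157 FPKM in PBS. Of the 8, 7 were called higher, beside 11.1% of all genes. The remaining marker, Pdgfra, was not called and had a log2 fold change of -0.60. It averaged 70.2 ± 21.6 CPM in CTX140 (SD, n = 5) and 107 ± 53.1 CPM in PBS (n = 4). The summed level of 7 skin keratinocyte markers was 8.95 to 17.2 FPKM in CTX140 and 2.17 to 3.83 FPKM in PBS. Of the 4 tested, Krt5, Krt14 and Dmkn were called higher. Krt10 was not, with 4.29 ± 1.02 CPM in CTX140 (SD, n = 5) and 4.23 ± 1.03 CPM in PBS (n = 4). Krt1, Lor and Krtdap did not pass the filter on low counts, so the sum does not stand for the whole list. The 9 sebaceous gland markers, from a tissue that also expresses desaturases, summed to 9.93 to 15.1 FPKM in CTX140 and 9.41 to 15.4 FPKM in PBS. Only 4 of them were tested, and none was called. Soat1 dominated that sum at a mean of 11.8 FPKM over all libraries, and the next marker, Awat2, had 0.413 FPKM. The sum therefore says little about the other markers. Secretory mammary epithelium markers summed to 23.5 to 219 FPKM in CTX140 and 21.4 to 72.8 FPKM in PBS, with none of the 4 tested called. The 219 FPKM came from CTX140 1, and the other CTX140 libraries had at most 26.5 FPKM. Glycam1 alone reached 187 FPKM in CTX140 and 50.3 FPKM in PBS. The part of fibroblast, keratinocyte and mammary content in the values of the 10 genes was not tested.

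Genes around the pathway were counted from lists of related function. Of 12 genes of SREBP processing and lipogenic transcription factors, 11 were tested in CTX140 against PBS, and 4 were called lower and 2 higher, beside the 10.1% and 11.1% of all genes given above. Insig1, which holds the SREBP escort in the endoplasmic reticulum and is itself an SREBP target, averaged 14.7 ± 1.77 CPM in CTX140 (SD, n = 5) and 45.0 ± 5.70 CPM in PBS (n = 4), and its log2 fold change was -1.61 (SE 0.17, edgeR adjusted p = 4.84e-05). Srebf2, the gene for the SREBP of cholesterol synthesis, fell by 1.08 on the log2 scale, with 51.8 ± 7.88 CPM in CTX140 and 110 ± 22.6 CPM in PBS. Insig2 and the protease gene Mbtps1, which cleaves SREBPs, were also lower. Thrsp, a lipogenic cofactor of fat and liver, averaged 35.8 ± 49.2 CPM in CTX140 and 0.291 ± 0.493 CPM in PBS, and its log2 fold change was 6.88 (edgeR adjusted p = 0.0159). Its CTX140 libraries held 120, 37.1, 17.3, 3.76 and 0.749 CPM, so that CTX140 5 lay inside the PBS range of 0 to 1.02 CPM, and without CTX140 1 the CTX140 mean was 14.7 CPM and the log2 fold change 5.6. The call of Thrsp was lost without PBS 4. The liver X receptor gene Nr1h3 was called higher. With 1 library left out, the calls of Insig2 and Nr1h3 were lost in 5 of 9 cases each, CTX140 1 among them, and that of Mbtps1 in 4.

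Of 15 sterol-regulated genes of cholesterol supply, 12 were called lower in CTX140 than in PBS and none higher. Over all genes, 10.1% were called lower and 11.1% higher. The median log2 fold change of the 15 was -1.16. The lanosterol demethylase gene Cyp51 averaged 17.4 ± 1.65 CPM in CTX140 (SD, n = 5) and 55.8 ± 13.6 CPM in PBS (n = 4), with a log2 fold change of -1.68 and an edgeR adjusted p of 6.48e-05. The HMG-CoA synthase gene Hmgcs1 averaged 33.9 ± 3.01 CPM in CTX140 and 78.2 ± 10.9 CPM in PBS. In CTX100 against PBS, 3 of the 15 were called lower, beside 0.397% of all genes. Among them were Cyp51 at -0.88 and Hmgcs1 at -0.59 on the log2 scale. In CTX140 against CTX100, 5 were called lower, beside 0.475% of all genes, among them Idi1 at -1.32 and Cyp51 at -0.80. Each of these calls at 100 mg/kg or between the doses was lost in 5 to 8 cases when 1 library was left out, whereas the calls of Cyp51 and Hmgcs1 in CTX140 against PBS were kept in all 9 cases.

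The list of citrate, acetyl-CoA and NADPH supply had 9 genes, of which 2 were called higher and 1 lower in CTX140 than in PBS, where 11.1% and 10.1% of all genes were. Idh1, the cytosolic isocitrate dehydrogenase that yields NADPH, averaged 157 ± 23.2 CPM in CTX140 (SD, n = 5) and 288 ± 92.5 CPM in PBS (n = 4). Its log2 fold change was -0.88, and in CTX100 against PBS it was -0.77, a call lost in 8 of 9 cases when 1 library was left out. Me1, the malic enzyme that also yields NADPH, averaged 89.0 ± 15.2 CPM in CTX140 and 64.9 ± 10.3 CPM in PBS, and Mlycd, which breaks down malonyl-CoA, averaged 12.2 ± 3.23 CPM in CTX140 and 8.16 ± 0.766 CPM in PBS. With 1 library left out the call of Me1 was lost in 4 of 9 cases and that of Mlycd in 6, both without CTX140 1 among them. Among 15 other elongases, desaturases and genes of the elongation cycle, 10 were tested and 4 were called lower and none higher. These were Elovl5 at -0.49, Elovl7 at -0.60, Tecr at -0.38 and Hsd17b12 at -0.39 on the log2 scale. Leaving out 1 library ended the call of Elovl5, Elovl7 and Hsd17b12 in 3 or 4 of 9 cases each, and that of Tecr in none.

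Fatty acid activation and glycerolipid assembly had 16 genes, with 2 called higher and 2 lower in CTX140 than in PBS, near the 21.3% of all genes called in either direction. Dgat2, which makes triglyceride, averaged 26.9 ± 20.3 CPM in CTX140 (SD, n = 5) and 6.84 ± 1.63 CPM in PBS (n = 4), and Acsl1, an acyl-CoA synthetase of fat and muscle, averaged 34.5 ± 14.6 CPM in CTX140 and 16.8 ± 3.06 CPM in PBS. Without CTX140 1 the CTX140 mean of Dgat2 was 17.8 CPM, and both were still called. Acsl3, an acyl-CoA synthetase of lipid droplets, averaged 47.4 ± 14.3 CPM in CTX140 and 101 ± 31.7 CPM in PBS, and Acsl4, which favours arachidonate, averaged 125 ± 19.5 CPM in CTX140 and 181 ± 42.2 CPM in PBS. The call of Acsl4 was lost without PBS 3. Of 15 genes of fatty acid oxidation, 12 were tested and none was called in any of the 3 comparisons.

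Likeness of pattern was taken as the mean absolute difference between log2 CPM profiles over the 14 libraries, each profile set to its own PBS mean, among 12287 protein-coding genes outside the set. Scd2 and Fads1 were each other's nearest of the 10, at 0.11 on the log2 scale, and the nearest outside genes were Galnt1 and Mindy2 for Scd2 (0.13 and 0.14) and Ptpn9 and Usp46 for Fads1 (0.09 and 0.10). For Scd1 the nearest of the 10 was Fasn, at 0.47, and outside genes were nearer, with Ptprg at 0.23 and S1pr1 at 0.26. For Fads2 they were Apcdd1 at 0.24 and Dcbld2 at 0.25, and for Elovl6 Arhgef40 at 0.15 and Dok4 at 0.16. For Fasn they were Map4k1 at 0.18 and Engase at 0.20, and its nearest of the 10 was Acaca at 0.23. These differences carry no test.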

How the data were processed

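RNA of 14 tumour libraries was measured by bulk RNA-seq, and groups were taken from the labels. The deposited counts are whole numbers of reads per Ensembl gene, not normalised. The FPKM values deposited by the authors are those counts over the gene length in the table and over a library constant. That constant is not the count total: in PBS 2 it was 14.7, beside a total of 15.4 (both in 1000000 counts). Per the submitters' processing notes, the build was mm10 and DESeq2 was a tool used. The aligner, counter, read length and use of strand were not given in the sources used here. Whether reads of overlapping genes on opposite strands were told apart is therefore not known. Totals of 14.4 to 19.3 (in 1000000 counts) per library limit the precision of low genes.

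Counts were tested with edgeR 4.0.16 in R 4.3.3: TMM factors, filterByExpr by group, 1 robust quasi-likelihood fit of all 14 libraries with a mean per group, two-sided, with Benjamini-Hochberg adjustment over the 15360 genes tested and calls at an adjusted p under 0.05. CPM uses TMM-scaled library sizes. FPKM was used for levels between genes. Profiles used log2 CPM with a prior count of 2. The adipocyte covariate is the mean log2 CPM of 10 tested markers. The fit was tested on simulated data. Transcripts came from GENCODE M21 and promoter windows from RefSeq (GRCm38.p6), and coordinates are those of the deposited table.

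All 10 genes were named. Each pathway list named up to 3 called genes with the smallest p in a comparison, each cell type list up to 3 genes with the highest FPKM, and likeness the 2 nearest genes. Some genes taken by this rule are not reported here. Nr1h3, Insig2, Mbtps1, Hsd17b12, Acsl4, Cidea, Lipe, Pparg, Epcam, Krt19, Cdh1 and Cldn7 were named after their values were seen. So were Pdgfra, Cd68, Dmkn, Krt1, Lor and Krtdap. The 10 genes and all lists were chosen with earlier results of these data known. No library was left out, and no pair of libraries held identical counts.

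Alternatives were RLE and upper quartile factors, no filter, a filter of 1 CPM in 4 libraries, a test against a 1.2-fold change, only the compared groups, a replicate block, the adipocyte covariate, DESeq2 1.42.0, limma 3.58.1 on log2(FPKM + 1) and log2(FPKM + 0.1), and leaving out each library or 2 pairs of libraries.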

Additional observations from a re-analysis of the deposited data

Results flagged for a closer look

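Of 30 groups of library values (10 genes in 3 groups), 2 held a library whose gap to its neighbour was large for the range of its group by Dixon's test, and chance alone gives about 1 in 20 such groups. Acaca was at 72.2 CPM in CTX140 1, against 30.2 to 40.9 CPM in the other 4 CTX140 libraries, a gap of 0.745 of the group's range. Acacb was at 10.0 CPM in CTX140 1, against 7.12 to 7.72 CPM in the other 4, a gap of 0.791 of the range. The critical value for 5 libraries is 0.71. The same library was highest in adipocyte markers, at 363 FPKM, and in the share of mitochondrially encoded counts, at 9.81% against 4.14 to 5.84% in the other 4. The part of either in these values was not tested.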

How the results depend on the processing

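In CTX140 against PBS the 4 falls, of Elovl6, Scd2, Fads1 and Fads2, were called under every alternative except the adipocyte covariate, which called 0 lower, and leaving out each library gave 4 to 4. The single gene called higher was 0 with no filter, with a 1.2-fold threshold, with the covariate, with only the compared groups, and with limma at either pseudocount. It was also 0 when CTX140 1 and CTX140 2, or CTX140 1 and CTX100 3, were left out together, 2 alternatives chosen after seeing the data, and ran from 0 to 2 when 1 library was left out. Leaving out 1 library gave 0 to 2 lower genes in CTX100 against PBS. In CTX140 against CTX100 it gave 0 to 1 higher and 0 to 1 lower, and no filter and DESeq2 each called 1 lower, Fads2.

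Signs turned for genes that were not called, and for Scd1 with the covariate: in CTX140 against PBS Scd1 had -0.72, Fasn -0.47 and Acaca -0.33 on the log2 scale, and in CTX100 against PBS -0.87, -0.17 and -0.10. In CTX140 against CTX100 the covariate gave -0.30 for Fasn and -0.23 for Acaca. There, leaving out CTX140 1 and CTX140 2 gave -0.18 for Fasn and -0.22 for Acaca, leaving out CTX140 1 and CTX100 3 gave -0.07 for Acaca, and upper quartile factors gave 0.00 for Acly. With 1 library left out Acly ran from -0.33 to 0.04 in CTX140 against PBS, -0.14 to 0.06 in CTX100 against PBS and -0.30 to 0.07 in CTX140 against CTX100, where Srebf1 ran from -0.16 to 0.03, Acaca from -0.13 to 0.25 and Fasn from -0.06 to 0.44. The causes were not tested.

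The labels do not say that replicate numbers pair the libraries. Deviations of same-numbered libraries correlated across genes at -0.19 to 0.43, which cannot decide whether they are paired. With the replicate block, 1 gene was called higher and 4 lower in CTX140 against PBS and 0 in the other comparisons, and Acly had 0.07 in CTX100 against PBS. Over all genes, the block gave 293 calls in CTX140 against CTX100, beside 192 without it.

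Calls over all genes in CTX140 against PBS were 3268, but 1697 with the 1.2-fold threshold, 251 with the covariate, 1878 with only the compared groups, and 1975 to 3894 with 1 library left out. In CTX100 against PBS they were 245, but 48 with the threshold, 529 with only the compared groups, 148 with limma on log2(FPKM + 1), 839 with DESeq2, and 17 to 686 with 1 library left out. In CTX140 against CTX100 they were 192, but 0 with the threshold or the covariate, 1250 with DESeq2, 3 and 1 without the 2 pairs of libraries, and 0 to 1007 with 1 library left out. Few counts limit Acacb and Fads2 most, with at least 69 and 80 per library.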
